A study of Mus musculus with 8 samples.

Results

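Solute carrier (SLC) genes encode a large class of membrane transporters, which move sugars, amino acids, ions, metals, vitamins and nucleotides across the plasma membrane and the membranes of organelles. The 133 genes described here are measured genes whose symbol is Slc, a family number, the letter a and a member number, of 8562 genes measured in all. They were grouped by family number into 20 classes, the fullest being 25 mitochondrial carriers (Slc25), 23 amino acid transporters and 10 zinc importers (Slc39), which are described together with 5 zinc exporters (Slc30). Of the 133, 4 (Slc4a1ap, Slc7a6os, Slc9a3r1 and Slc9a3r2) carry such a symbol because they lie beside or bind a carrier, and are not carriers themselves.

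Epididymal white adipose tissue (eWAT) was taken from male mice aged 6 weeks. HuR-FKO mice were AdipoQ-Cre;HuRf/f, in which Cre driven by the adiponectin promoter deletes the floxed gene of the RNA-binding protein HuR (Elavl1) in adipocytes alone, so that all other cells of the tissue keep it. Ctrl mice were littermates that carried the same HuRf/f alleles without Cre, and both had a background backcrossed to C57BL/6 for 2 generations only. Each replicate pooled the tissue of 3 mice and was split for sequencing of mRNA and of ribosome-protected fragments (RPF), with 2 pools per genotype and hence 8 libraries.

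In fat, insulin makes adipocytes take up glucose by moving the glucose transporter GLUT4 (Slc2a4) to the cell surface, and fatty acid transport proteins take up fatty acids that are stored as triglyceride. Mitochondrial carriers exchange metabolites between cytosol and matrix, and the dicarboxylate and oxoglutarate carriers among them exchange malate and related acids. HuR binds U-rich and AU-rich stretches, mostly in introns and 3' untranslated regions, and is best known for stabilising the mRNAs it binds.

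Levels are RPKM, coding-sequence reads scaled by coding length and library size. The mRNA libraries held 5223721 to 8060054 coding reads and the RPF libraries 531966 to 1311977. The carriers had a median of 160.5 to 231.5 reads per mRNA library but only 14 to 35 per RPF library, where 25.8% to 65.2% of them fell under 20 reads, so changes in RPF were measured far less precisely than changes in mRNA. Elavl1 itself had 40.8 and 49.8 RPKM of mRNA in Ctrl against 41.6 and 43.3 RPKM in HuR-FKO (limma, adjusted p = 0.695). The mRNA of the targeted gene thus did not separate the genotypes. In RPF it had 64.6 and 81.8 RPKM in Ctrl against 56.0 and 63.3 RPKM in HuR-FKO, lower without overlap, as were 24.1% of all genes. The authors reported the lack of HuR in eWAT by real-time PCR and western blot, while the genotypes of these libraries rest on their labels. All 8 adipocyte markers listed were measured, and 1 of them, Lep, fell while 0 rose past the threshold. Their summed mRNA level was 40419 and 45759 RPKM in Ctrl against 51346 and 51686 RPKM in HuR-FKO. Most of that sum was Fabp4, at 26435 and 32249 RPKM in Ctrl against 37985 and 38627 RPKM in HuR-FKO (limma, adjusted p = 0.092). Of 7 measured macrophage markers 4 rose and their summed level was 1107 to 1213 RPKM in Ctrl against 1392 to 1459 RPKM in HuR-FKO. Of 7 measured red blood cell markers 6 fell, all of them globins, from a sum of 8455 to 12477 RPKM in Ctrl to 3673 to 6087 RPKM in HuR-FKO. Globin near copies such as Hba-a1 (2991 and 2108 RPKM in Ctrl) and Hba-a2 (2942 and 2095 RPKM) may share reads. The 6 falls may thus not be separate measurements, and the sum may count reads repeatedly. Among 6 endothelial markers Cldn5 fell, and none of the 5 fibroblast, 4 mesothelial and 3 smooth muscle markers measured passed the test, while the T or B lymphocyte and epididymis epithelium lists had no measured member. The part of these cell types in the solute carrier results was not tested, and in bulk tissue fewer cells of a type and less RNA per cell cannot be told apart.

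The first comparison asked which solute carrier mRNAs differed when adipocytes lacked HuR. The mRNAs of 19 solute carrier genes rose in HuR-FKO and those of 10 fell, out of 133, and the other 104 did not pass the test (limma on log2(RPKM + 1), Benjamini-Hochberg adjusted p under 0.05). Of all 8562 genes, 7.5% rose and 6.54% fell, so the carriers held a larger share of rises than the whole table, while their share of falls was close to the background. The median change of the carriers was 0.17 on the log2 scale against 0.02 for all genes, and 89 of 133 had a value above 0. Both HuR-FKO pools lay above both Ctrl pools for 64 carriers and below them for 27, against 32.5% and 27.8% of all genes. The rises were spread over 12 classes and the falls over 4. Falls gathered in the mitochondrial carriers, which held 7 of the 10. No amino acid transporter (23 genes), zinc transporter (15) or cation exchanger (6) fell. With 6.54% of all genes lower and 14% past the threshold in either direction, classes this small without a fall or a call are not set apart from the background.

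**Figure D1:**
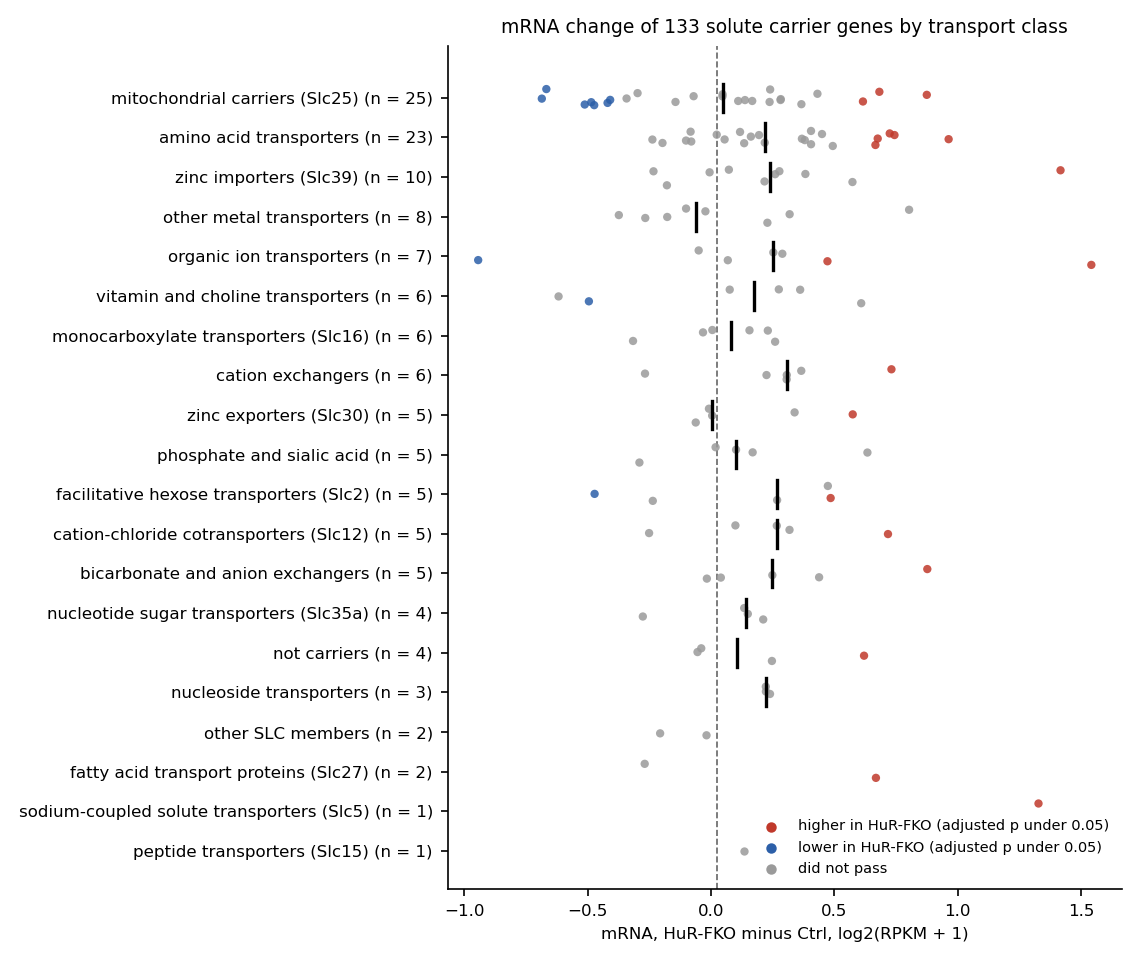
The mRNA change (HuR-FKO minus Ctrl, log2(RPKM + 1)) of each of the 133 genes by transport class, with the class median as a bar where a class had 3 or more genes and the median of all 8562 genes as a dashed line. Points in red rose and points in blue fell past an adjusted p of 0.05. The blue points lie mainly in the mitochondrial carriers, and the farthest red points are Slc10a6 (1.54), Slc39a14 (1.42) and Slc5a6 (1.32).

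Calls at this size depended on how the spread was estimated. With a HuR-FKO pool left out, fewer carriers passed, and so did fewer of all genes. The spread then came from the 2 Ctrl pools alone, and the lone pool was assumed to vary like the others. The median of the carriers less that of all genes was 0.127 without the first HuR-FKO pool and 0.106 without the second, against 0.143. When the spread was estimated over all 8 libraries together, RPF included, 8 carriers rose and 0 fell. Of all 8562 genes, 150 rose and 104 fell in that fit, against 642 and 560. Of the 29 carriers past the threshold, 5 passed under all 15 alternatives: Slc10a6, Slc39a14, Slc5a6, Slc38a2 and Slc25a25, all of which rose. The other 24 calls ended under 1 to 8 of the 15, and most often for Slc2a1 (8), Slc25a23 (7), Slc25a4 and Slc30a1 (6 each) and Slc8a1, Slc19a1 and Slc22a5 (5 each). Quantile normalization ended the calls of Slc2a1, Slc4a4, Slc8a1, Slc22a5, Slc25a4, Slc25a23, Slc25a42 and Slc30a1. Taking out the trend of each library along transcript length and coding G+C content, an alternative chosen after the values were seen, ended those of Slc8a1, Slc19a1, Slc25a23 and Slc25a39. None of the 29 changed sign. Among the 15, the fit without a minimum RPKM equals the main fit, because that minimum removed no gene, so it could end no call.

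**Figure D2:**
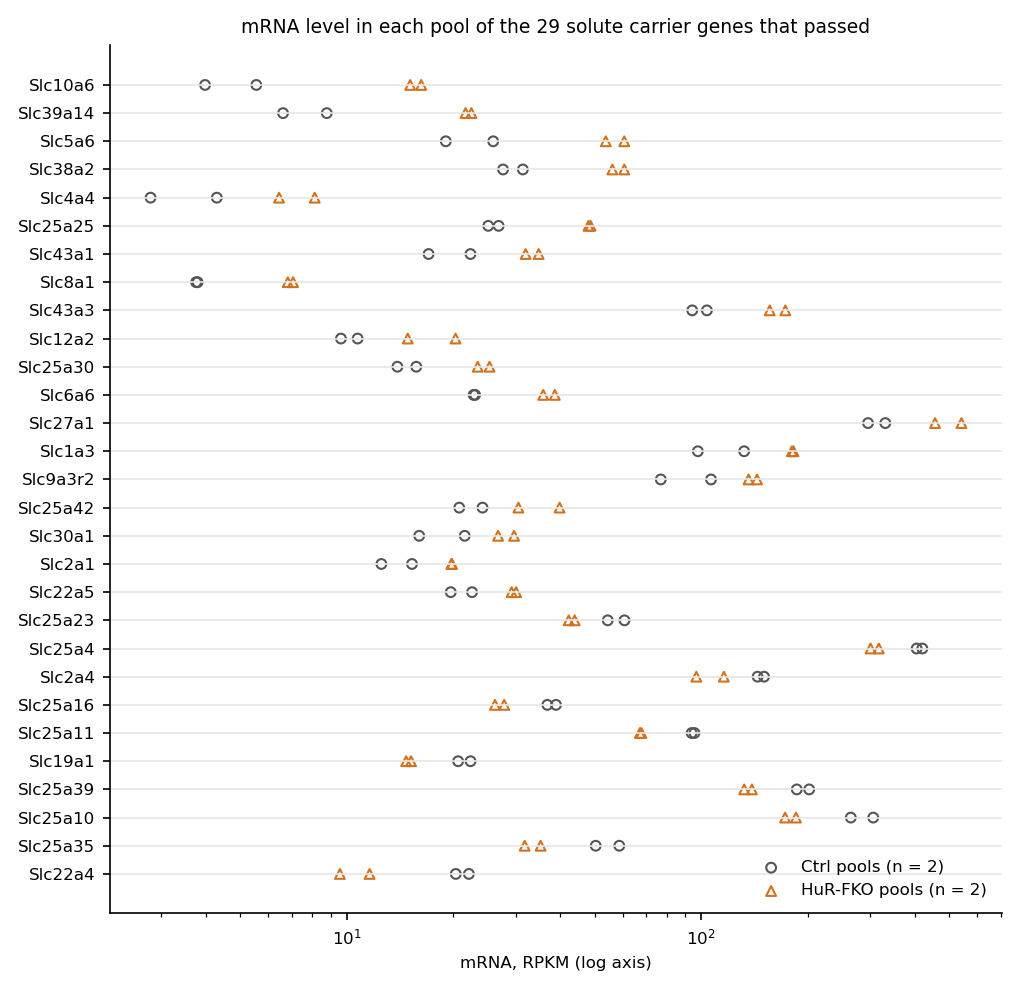
The mRNA level (RPKM, log axis) in each of the 4 pools of the 29 genes that passed, ordered by their change, with circles for Ctrl and triangles for HuR-FKO. The triangles of Slc10a6 (16.2 and 15.1 RPKM) and Slc39a14 (21.6 and 22.5 RPKM) stand farthest to the right of their circles, and those of Slc22a4 (9.57 and 11.6 RPKM) farthest to the left.

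Among the amino acid transporters, each change that passed was a rise. Of 23 genes in the class, 5 rose, none fell and 18 did not pass, with a median change of 0.22 and a range from -0.24 to 0.96. Slc38a2 (NM_175121, chromosome 15, 96687392 to 96699730, minus strand) encodes SNAT2, the sodium-coupled importer of small neutral amino acids that cells raise when amino acids are short. Its mRNA level was 27.6 and 31.4 RPKM in the Ctrl pools and 56.1 and 60.7 RPKM in the HuR-FKO pools. The HuR-FKO level was 1.98-fold that of Ctrl, with no overlap and a log2 change of 0.96 ± 0.12 (SE, limma, adjusted p = 0.00111). Slc1a3, a glutamate and aspartate importer, had 132 and 97.8 RPKM in Ctrl against 182 and 180.2 RPKM in HuR-FKO, again without overlap, and rose by 0.67 ± 0.15 (SE, limma, adjusted p = 0.0168). Slc6a6, the taurine transporter, had 22.8 and 23.02 RPKM in the Ctrl pools and 35.8 and 38.6 RPKM in the HuR-FKO pools and rose by 0.68 ± 0.12 (SE, limma, adjusted p = 0.00671). The pools of each genotype lay close together for Slc6a6, whereas the 2 Ctrl pools of Slc1a3 lay apart. Slc43a1, which encodes LAT3, a carrier of large neutral amino acids, had 22.3 and 17.01 RPKM in Ctrl against 34.8 and 31.96 RPKM in HuR-FKO and rose by 0.74 ± 0.15 (SE, limma, adjusted p = 0.0116). Its family member Slc43a3, which is known to carry purine nucleobases rather than amino acids, had 94.3 and 104 RPKM in the Ctrl pools and 156 and 173 RPKM in the HuR-FKO pools and rose by 0.72 ± 0.12 (SE, limma, adjusted p = 0.0043). It is in the class by its family number alone, so that 4 of the 5 rises belong to genes for amino acid carriers. Without one or the other HuR-FKO pool, Slc1a3, Slc6a6, Slc43a1 and Slc43a3 no longer passed, whereas Slc38a2 did.

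The most abundant solute carrier mRNA of the tissue did not pass. Slc1a5, which encodes the glutamine exchanger ASCT2, had 1568 and 1541 RPKM in Ctrl against 1553 and 1389 RPKM in HuR-FKO, with overlapping genotypes and a change of -0.08 ± 0.12 (SE, limma, adjusted p = 0.663). Slc7a10, the adipocyte carrier of serine and other small neutral amino acids, had 199.6 and 226 RPKM in the Ctrl pools and 254 and 233 RPKM in the HuR-FKO pools, a difference of 0.20 ± 0.12 (SE, limma, adjusted p = 0.297). Slc3a2, the heavy chain that large amino acid transporters need to reach the surface, lay just outside the threshold. Its level was 116 and 139 RPKM in Ctrl against 176 and 163 RPKM in HuR-FKO, with a change of 0.41 ± 0.13 (SE, limma, adjusted p = 0.059).

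Mitochondrial carriers moved in both directions. Of 25 Slc25 genes measured, 7 fell, 3 rose and 15 did not pass, and their median change was 0.05, near that of all genes. Slc25a10 (NM_013770, chromosome 11, 120491840 to 120499187, plus strand) encodes the dicarboxylate carrier, which exchanges malate and succinate for phosphate and is abundant in white fat. Its mRNA was at 264 and 306 RPKM in the Ctrl pools and 185 and 172 RPKM in the HuR-FKO pools, a ratio of 0.627 and a log2 change of -0.67 ± 0.12 (SE, limma, adjusted p = 0.00719). Slc25a11, the oxoglutarate carrier of the malate-aspartate shuttle, had 93.96 and 95.7 RPKM in Ctrl against 67.1 and 67.8 RPKM in HuR-FKO and a change of -0.48 ± 0.11 (SE, limma, adjusted p = 0.0203). The genotypes did not overlap for either gene.

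Slc25a35, whose substrate is not established, had 50.4 and 58.7 RPKM in the Ctrl pools and 35.2 and 31.8 RPKM in the HuR-FKO pools and fell by 0.69 ± 0.13 (SE, limma, adjusted p = 0.00857). Slc25a39, which imports glutathione into the matrix, had 186 and 202 RPKM in Ctrl against 132 and 139 RPKM in HuR-FKO and fell by 0.51 ± 0.11 (SE, limma, adjusted p = 0.0174). Both lay lower in each HuR-FKO pool than in either Ctrl pool. Slc25a4, which encodes ANT1, an exchanger of matrix ATP for cytosolic ADP, had 405 and 420.4 RPKM in the Ctrl pools and 317 and 300.3 RPKM in the HuR-FKO pools and fell by 0.42 ± 0.11 (SE, limma, adjusted p = 0.0342), whereas its close relative Slc25a5 (ANT2) had 415 and 418 RPKM in Ctrl against 421 and 440.2 RPKM in HuR-FKO and a difference of 0.05 ± 0.11 (SE, limma, adjusted p = 0.802). How reads shared by such near copies were counted is not given in the sources used here. Slc25a16 had 38.9 and 36.8 RPKM in the Ctrl pools and 27.8 and 26.2 RPKM in the HuR-FKO pools and fell by 0.47 ± 0.12 (SE, limma, adjusted p = 0.0301). Slc25a23, a calcium-regulated carrier of ATP-Mg and phosphate, had 60.7 and 54.5 RPKM in Ctrl against 43.9 and 42.3 RPKM in HuR-FKO and fell by 0.41 ± 0.12 (SE, limma, adjusted p = 0.0486), the smallest of the falls. The call of Slc25a23 ended under 7 of the 15 alternatives and that of Slc25a4 under 6.

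A further 3 mitochondrial carriers rose. Slc25a25 (NM_146118, chromosome 2, 32414487 to 32451445, minus strand) encodes a further calcium-regulated ATP-Mg and phosphate carrier, of the same subfamily as Slc25a23. Its level was 26.8 and 25.1 RPKM in the Ctrl pools and 48.7 and 48.1 RPKM in the HuR-FKO pools. The change of 0.88 ± 0.12 (SE, limma, adjusted p = 0.00151) lay opposite to that of Slc25a23. Slc25a30, a relative of the uncoupling proteins, had 15.7 and 13.9 RPKM in Ctrl against 23.4 and 25.3 RPKM in HuR-FKO and rose by 0.68 ± 0.13 (SE, limma, adjusted p = 0.0102). Slc25a42, the mitochondrial coenzyme A carrier, had 24.2 and 20.8 RPKM in the Ctrl pools and 39.8 and 30.5 RPKM in the HuR-FKO pools and rose by 0.62 ± 0.15 (SE, limma, adjusted p = 0.0274). The abundant phosphate carrier Slc25a3 did not pass, at 422 and 488 RPKM in Ctrl against 419 and 446 RPKM in HuR-FKO.

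Of the 5 facilitative hexose transporters, Slc2a4 fell, Slc2a1 rose and 3 did not pass. Slc2a4 (NM_009204, chromosome 11, 69942539 to 69948188, minus strand) encodes GLUT4, the insulin-responsive glucose transporter of fat and muscle. Its mRNA was at 144 and 150.4 RPKM in the Ctrl pools and 116 and 96.9 RPKM in the HuR-FKO pools. Both HuR-FKO pools lay below both Ctrl pools, with a ratio of 0.722 and a log2 change of -0.47 ± 0.12 (SE, limma, adjusted p = 0.0346). Slc2a1 encodes GLUT1, the transporter of basal glucose uptake, and had 12.5 and 15.3 RPKM in Ctrl against 19.8 and 19.7 RPKM in HuR-FKO. It rose by 0.49 ± 0.14 (SE, limma, adjusted p = 0.0488), a call at the edge of the threshold that ended under 8 of the 15 alternatives. Slc2a3 (GLUT3) had 7.301 and 7.54 RPKM in the Ctrl pools and 12.02 and 9.504 RPKM in the HuR-FKO pools and a difference of 0.47 ± 0.17 (SE, limma, adjusted p = 0.0873), without overlap. Slc2a8, an intracellular member, had 32.2 and 29.5 RPKM in Ctrl against 27.1 and 25.02 RPKM in HuR-FKO, and Slc2a12 was low at 2.94 and 1.59 RPKM in the Ctrl pools and 2.66 and 3.05 RPKM in the HuR-FKO pools, and neither passed (adjusted p = 0.23 and 0.533 by limma). Per coding length, GLUT4 was the most abundant of the 5 in every pool. Of 12 measured genes for the traffic and insulin signalling of GLUT4, none passed in mRNA, where 14% of all genes did. Their median change was 0.02, as for all genes. Among them Akt2 had 221 and 203 RPKM in Ctrl against 211 and 213 RPKM in HuR-FKO, and Tbc1d4, the Rab-regulating target of Akt, had 21.96 and 18.02 RPKM in the Ctrl pools and 20.6 and 20.3 RPKM in the HuR-FKO pools.

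Fatty acid and monocarboxylate carriers gave a single call. Slc27a1 (NM_011977, chromosome 8, 71568882 to 71587302, plus strand) encodes FATP1, which takes up long-chain fatty acids and activates them. Its mRNA was at 331 and 295 RPKM in Ctrl against 542 and 457 RPKM in HuR-FKO. This was a rise of 0.67 ± 0.13 (SE, limma, adjusted p = 0.00907) and 1.595-fold, with no overlap. Slc27a4 (FATP4) had 28.4 and 32.1 RPKM in the Ctrl pools and 27.2 and 22.8 RPKM in the HuR-FKO pools and a difference of -0.27 ± 0.14 (SE, limma, adjusted p = 0.214). None of the 6 Slc16 genes passed, their changes running from -0.32 to 0.26, and Slc16a1, the lactate transporter MCT1, had 57.3 and 55.04 RPKM in Ctrl against 68.6 and 66.3 RPKM in HuR-FKO.

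Zinc transporters are of 2 kinds. Slc30 proteins (ZnT) move zinc out of the cytosol and Slc39 proteins (ZIP) move it in. Of 15 measured, 2 rose, none fell and 13 did not pass, so 13.3% passed against 14% of all genes. Their mRNA changes ran from -0.23 to 1.42. Slc39a14 (NM_144808, chromosome 14, 70303469 to 70351425, minus strand) encodes ZIP14, an importer of zinc, iron and manganese that rises in liver during inflammation. Its mRNA was at 6.61 and 8.78 RPKM in the Ctrl pools and 21.6 and 22.5 RPKM in the HuR-FKO pools. The HuR-FKO pools lay close together at 2.86-fold the Ctrl mean, a log2 change of 1.42 ± 0.16 (SE, limma, adjusted p = 0.000606). Slc30a1 (NM_009579, chromosome 1, 191906767 to 191913247, plus strand) encodes ZnT1, the zinc exporter of the plasma membrane. It had 16.01 and 21.5 RPKM in Ctrl against 29.6 and 26.7 RPKM in HuR-FKO and rose by 0.57 ± 0.16 (SE, limma, adjusted p = 0.0378), a call that ended under 6 of the 15 alternatives, quantile normalization (0.51, adjusted p = 0.0674) among them. Slc39a8, the closest relative of Slc39a14, had 9.902 and 8.402 RPKM in the Ctrl pools and 11.9 and 16.7 RPKM in the HuR-FKO pools and a difference of 0.57 ± 0.18 (SE, limma, adjusted p = 0.0618), without overlap. The abundant Slc39a1 and Slc39a7 had 129.8 and 121 RPKM in Ctrl against 113 and 108 RPKM in HuR-FKO and 105 and 110.1 RPKM in Ctrl against 105 and 109 RPKM in HuR-FKO, respectively, and did not pass.

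The metallothioneins, small proteins that bind zinc and whose genes zinc switches on through the factor MTF-1, rose in both assays. Mt1 had 530.0 and 511 RPKM in Ctrl against 1295 and 1004 RPKM in HuR-FKO, and Mt2 had 197 and 206 RPKM in the Ctrl pools and 811 and 681 RPKM in the HuR-FKO pools. Their mRNA rose by 1.13 ± 0.14 (SE, limma, adjusted p = 0.000876) and 1.88 ± 0.12 (SE, limma, adjusted p = 2.74e-05). In RPF, Mt1 had 998 and 978 RPKM in Ctrl against 2410.2 and 1819 RPKM in HuR-FKO, a rise of 1.08 ± 0.15 (SE, limma, adjusted p = 0.0282), and Mt2 had 206 and 254 RPKM in Ctrl against 1096 and 742 RPKM in HuR-FKO, a rise of 1.97 ± 0.20 (SE, limma, adjusted p = 0.00569). These were the 2 measured genes of the 4 listed for zinc binding and sensing.

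**Figure D3:**
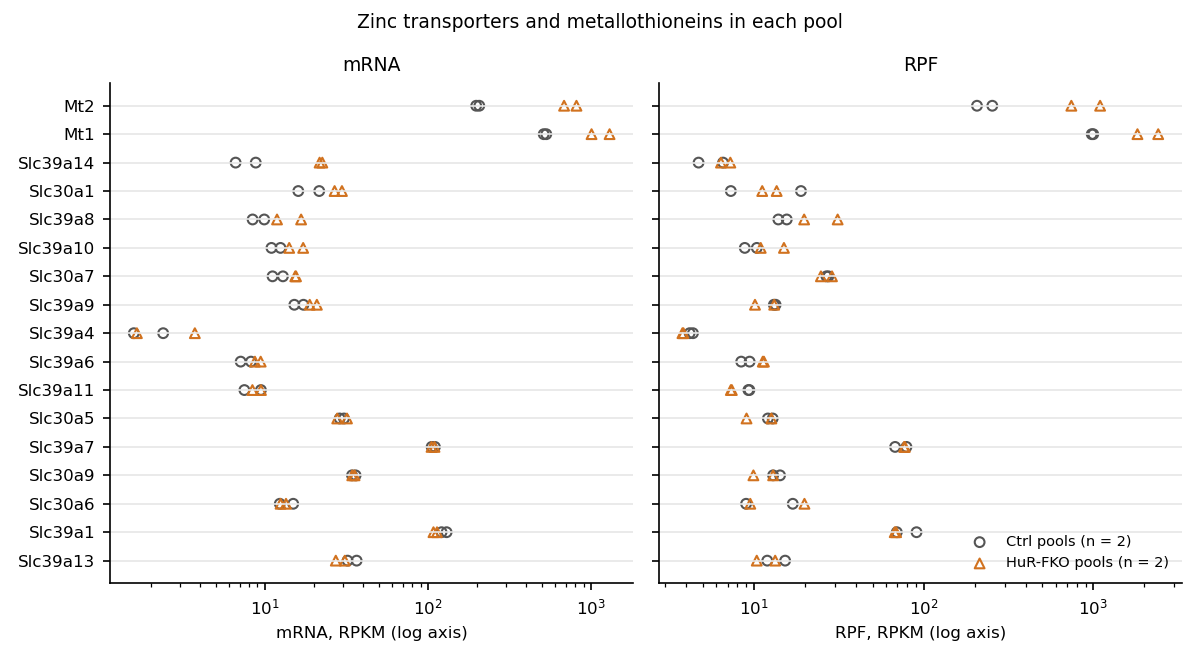
Levels (RPKM, log axes) of the 15 zinc transporters and of Mt1 and Mt2 in each pool, mRNA at left and RPF at right, with circles for Ctrl and triangles for HuR-FKO. Mt1 and Mt2 are separated by genotype in both panels, whereas Slc39a14 is separated in mRNA but not in RPF (4.72 and 6.58 RPKM in Ctrl against 7.26 and 6.398 RPKM in HuR-FKO).

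Slc30a1 and the metallothionein genes are textbook targets of MTF-1, which binds metal response elements with the core TGCACNC or TGCGCNC. The core was searched on both strands of the 300 bases around each gene start (250 before and 50 after, RefSeq on GRCm38.p6), counting overlapping matches singly by position. The Slc30a1 window (chr1:191906531-191906830, plus strand) is shown because it holds 2 matches, in capitals, both on the minus strand:
Slc30a1 promoter: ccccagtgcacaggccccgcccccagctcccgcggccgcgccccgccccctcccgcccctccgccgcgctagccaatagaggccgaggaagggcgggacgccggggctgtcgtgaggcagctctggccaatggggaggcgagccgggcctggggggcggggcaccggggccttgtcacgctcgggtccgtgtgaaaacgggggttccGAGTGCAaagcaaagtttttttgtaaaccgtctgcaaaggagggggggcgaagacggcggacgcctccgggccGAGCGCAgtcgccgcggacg
Of the 32851 promoter windows, 25.7% held at least 1 match and 7.11% held 2 or more. Of 15 windows for 12 zinc transporter genes, 6 held at least 1 and only that of Slc30a1 held 2 or more. The other measured zinc transporter genes, Slc39a14 among them, had no window and were not searched. The single windows of Mt1 and Mt2 each held 2 or more. A match is a description of the letters and no evidence of binding.

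Other metal transporters gave no call among 8 genes. Slc48a1, which moves haem out of lysosomes, came nearest, at 209 and 202 RPKM in Ctrl against 163 and 154 RPKM in HuR-FKO and -0.37 ± 0.11 (SE, limma, adjusted p = 0.0513). Slc31a1, the copper importer, had 40.1 and 35.1 RPKM in the Ctrl pools and 31.8 and 38.3 RPKM in the HuR-FKO pools. Slc11a1, an iron and manganese transporter of macrophage lysosomes, had 17.5 and 16.1 RPKM in Ctrl against 24.8 and 18.1 RPKM in HuR-FKO, with the higher HuR-FKO pool apart, and a difference of 0.32 ± 0.16 (SE, limma, adjusted p = 0.21), while 4 of the 7 macrophage markers rose in the same libraries.

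Some of the largest changes belonged to carriers of vitamins and organic ions. Slc10a6 (NM_029415, chromosome 5, 103605711 to 103629403, minus strand) encodes an importer of sulfated steroids. Its mRNA was at 5.56 and 3.98 RPKM in the Ctrl pools and 16.2 and 15.1 RPKM in the HuR-FKO pools. The rise of 1.54 ± 0.18 (SE, limma, adjusted p = 0.000709) was the largest of all 133, a ratio of 3.28. Slc5a6 (NM_177870, chromosome 5, 31036036 to 31048924, minus strand) encodes the sodium-dependent multivitamin transporter, which takes up biotin and pantothenate. It had 25.9 and 19.03 RPKM in Ctrl against 53.8 and 60.6 RPKM in HuR-FKO, with no overlap. Its rise was 1.32 ± 0.15 (SE, limma, adjusted p = 0.000763), or 2.55-fold.

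Slc22a4 and Slc22a5 lie near each other on chromosome 11 and changed in opposite directions. Slc22a4 (NM_019687, chromosome 11, 53983123 to 54028090, minus strand), whose protein carries ergothioneine, had 20.3 and 22.1 RPKM in the Ctrl pools and 9.57 and 11.6 RPKM in the HuR-FKO pools. It fell by 0.94 ± 0.15 (SE, limma, adjusted p = 0.00316), the largest fall of the 133, with a ratio of 0.499. Slc22a5 (NM_011396, chromosome 11, 53864542 to 53891660, minus strand), the carnitine importer, had 22.6 and 19.7 RPKM in Ctrl against 29.2 and 30.05 RPKM in HuR-FKO and rose by 0.47 ± 0.13 (SE, limma, adjusted p = 0.0381). Slc19a1, the reduced folate carrier, had 20.6 and 22.3 RPKM in the Ctrl pools and 15.2 and 14.7 RPKM in the HuR-FKO pools and fell by 0.49 ± 0.13 (SE, limma, adjusted p = 0.0338), a call that ended under 5 of the 15 alternatives. Slc46a1, the proton-coupled folate transporter, had 12.8 and 7.38 RPKM in Ctrl against 5.28 and 6.805 RPKM in HuR-FKO and did not pass at -0.62 ± 0.24 (SE, limma, adjusted p = 0.112), and the thiamine transporter Slc19a2 did not pass either, at 4.91 and 3.14 RPKM in the Ctrl pools and 7.203 and 5.94 RPKM in the HuR-FKO pools. The choline transporter Slc44a1 was the most abundant of the 6 vitamin and choline carriers at 45.0 and 38.2 RPKM in Ctrl against 44.2 and 43.4 RPKM in HuR-FKO, with a difference of 0.08 ± 0.13 (SE, limma, adjusted p = 0.713).

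Ion exchangers and cotransporters gave rises alone. Among 6 cation exchangers 1 rose. Slc8a1, the sodium-calcium exchanger of the plasma membrane, had 3.76 and 3.796 RPKM in the Ctrl pools and 7.06 and 6.82 RPKM in the HuR-FKO pools and rose by 0.73 ± 0.18 (SE, limma, adjusted p = 0.0275), a call that ended under 5 of the 15 alternatives. The pools of each genotype lay close together for Slc8a1. Among the 5 bicarbonate and anion exchangers, Slc4a4, the sodium-bicarbonate cotransporter, had 4.3 and 2.796 RPKM in Ctrl against 6.44 and 8.12 RPKM in HuR-FKO and rose by 0.88 ± 0.22 (SE, limma, adjusted p = 0.0299). The more abundant chloride-bicarbonate exchanger Slc4a2 had 37.02 and 37.1 RPKM in the Ctrl pools and 39.6 and 36.7 RPKM in the HuR-FKO pools and did not pass. Among the 5 cation-chloride cotransporters, Slc12a2 (NKCC1) had 10.7 and 9.63 RPKM in Ctrl against 14.9 and 20.3 RPKM in HuR-FKO and rose by 0.72 ± 0.17 (SE, limma, adjusted p = 0.022), and Slc12a4 (KCC1) had 39.8 and 38.3 RPKM in the Ctrl pools and 44.6 and 39.2 RPKM in the HuR-FKO pools. Of the 4 genes that are not carriers, Slc9a3r2, a scaffold protein that binds sodium-proton exchangers, had 76.9 and 107 RPKM in Ctrl against 144 and 136 RPKM in HuR-FKO and rose by 0.62 ± 0.15 (SE, limma, adjusted p = 0.0267).

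None of the nucleoside (3 genes), nucleotide sugar (4) and phosphate, sugar phosphate and sialic acid (5) transporters passed, nor Slc15a4, Slc33a1 or Slc50a1. The nucleoside transporters all had changes of 0.22 to 0.24. Among them Slc29a1 (ENT1) had 47.5 and 55.3 RPKM in the Ctrl pools and 61.8 and 59.7 RPKM in the HuR-FKO pools and Slc28a2 (CNT2) had 34.1 and 44.5 RPKM in Ctrl against 44.8 and 46.5 RPKM in HuR-FKO.

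Of 32 measured members of solute carrier families that bear other symbols, 5 rose, 3 fell and 24 did not pass, with a median change of -0.06. Those that passed were 25% of the list, against 14% of all genes. Mpc1, a subunit of the mitochondrial pyruvate carrier, had 589.9 and 663 RPKM in the Ctrl pools and 365 and 434 RPKM in the HuR-FKO pools and fell by 0.65 ± 0.13 (SE, limma, adjusted p = 0.0108). Ucp2, a mitochondrial carrier of the uncoupling protein group, had 239.7 and 266 RPKM in Ctrl against 503 and 469.7 RPKM in HuR-FKO and rose by 0.94 ± 0.12 (SE, limma, adjusted p = 0.000921). Ucp3 rose by 0.72 ± 0.14 (SE, limma, adjusted p = 0.00934) from 21.97 and 26.7 RPKM. The prostaglandin transporter Slco2a1 rose by 0.85 ± 0.14 (SE, limma, adjusted p = 0.00457). Of 32 measured ABC transporters, the pumps driven by ATP, 1 rose (Abcg1, 0.60) and 1 fell (Abcb9, -0.84), and their median was 0.11. That is 6.25% past the threshold, again against 14% of all genes.

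The 3' untranslated regions were read for AUUUA, the core of the AU-rich elements that HuR can bind (GENCODE M21 on GRCm38, sense strand, overlapping matches counted). A 3' untranslated region was found for 131 carriers. AUUUA was present in 15 of the 19 that rose, in 4 of the 10 that fell and in 73 of the 102 that did not pass, against 66.4% of 8204 genes with such a region. The regions also differed in length, with a median of 2008 bases in those that rose and 646 in those that fell, against 954 for all genes, and longer regions hold more matches. Per kilobase there were 1.43 matches in the regions of carriers that rose, 0.91 in those that fell and 1.86 over all genes, so both groups were below the background in density. Over the whole table AUUUA was present for 76.9% of all genes that rose and 49.0% of those that fell. The first match of 5 carriers is shown, with 12 bases on each side and AUUUA in capitals, as examples from the strongest rises and from the falls that hold one. Slc30a1, the only gene past the threshold with the longer element UUAUUUAUU, is shown with that element in capitals and 10 bases on each side:
Slc10a6, chr5:103605954-103605982, minus strand: uguaggacuguaAUUUAuugaaggcaucu
Slc39a14, chr14:70305803-70305831, minus strand: cggucagagcacAUUUAaagguuuuugca
Slc38a2, chr15:96689703-96689731, minus strand: aaacacuucuuaAUUUAcagcaaaguauu
Slc2a4, chr11:69943170-69943198, minus strand: uucuuuuggauuAUUUAuguguguggcua
Slc25a16, chr10:62944840-62944868, plus strand: cugcuccaacauAUUUAuuaauggcaaac
Slc30a1, chr1:191911739-191911767, plus strand: uuuuagagaaUUAUUUAUUucuuuacaau
Among the carriers that rose, the regions of Slc5a6, Slc27a1, Slc22a5 and Slc9a3r2 held no AUUUA. UUAUUUAUU was present in 11 of the 131 carriers (8.4%) and in 6.33% of all genes. Across the 133 carriers the mRNA change rose with transcript length (Spearman rho = 0.455 across genes, which are not independent replicates), as it did across 8245 genes (0.379), and the 2 Ctrl mRNA libraries also differed from each other along length (rho = -0.262 for carriers and -0.343 for all, Ctrl pool 2 minus pool 1). Once trends with length and G+C were taken out, 22 carriers rose and 7 fell, and of 8245 genes 610 rose and 414 fell.

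The second comparison asked whether ribosome-protected fragments moved as mRNA did. In RPF, 0 of 133 carriers passed limma's test, where 0.327% of all genes rose and 0.117% fell, and the lowest adjusted p was 0.146 (Slc5a6). At an unadjusted p under 0.05 there were 25 carriers, 16 higher and 9 lower, which is 18.8% against 10.7% of all genes. With voom on the recovered reads, 5 of 132 carriers passed against 2.14% of all genes. Slc5a6, Slc1a3, Slc25a25 and Slc27a1 rose and Slc22a4 fell by that test. The median RPF change of all carriers was 0.0044, against -0.05 for all genes.

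Of the 19 carriers whose mRNA rose, 17 had a higher mean RPF level in HuR-FKO, 13 without overlap of the pools, and of the 10 that fell, 9 had a lower one, 8 without overlap. Over all genes, both HuR-FKO RPF libraries were higher than both Ctrl libraries for 17.7% and lower for 24.1%. Among all genes that rose in mRNA, both HuR-FKO RPF libraries were higher for 332 of 642, and among all that fell both were lower for 332 of 560. The median RPF change was 0.57 for the 19 and -0.45 for the 10, against 0.31 and -0.38 for all genes that rose or fell in mRNA. The 2 assays came from shares of the same pools, so they are not independent animals.

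Slc5a6 had 16.4 and 20.3 RPKM in the Ctrl pools and 62.05 and 36.5 RPKM in the HuR-FKO pools in RPF, with no overlap and a difference of 1.34 ± 0.30 (SE, limma, adjusted p = 0.146). Slc10a6 had 8.51 and 4.93 RPKM in Ctrl against 14.3 and 25.2 RPKM in HuR-FKO, a difference of 1.41 ± 0.37 (SE, limma, adjusted p = 0.22), on 11, 4, 21 and 15 reads in the 4 libraries. Slc25a25 had 26.4 and 37.6 RPKM in the Ctrl pools and 58.7 and 60.9 RPKM in the HuR-FKO pools, a difference of 0.90 ± 0.24 (SE, limma, adjusted p = 0.217). These 3 had differences in RPF about as large as in mRNA. Slc1a3 had 199 and 199 RPKM in Ctrl against 305 and 307 RPKM in HuR-FKO, a difference of 0.62 ± 0.14 (SE, limma, adjusted p = 0.15), with replicate pools nearly equal. Slc27a1 had 300.4 and 333 RPKM in the Ctrl pools and 432 and 458 RPKM in the HuR-FKO pools, a difference of 0.49 ± 0.14 (SE, limma, adjusted p = 0.248). Neither overlapped between genotypes. Slc22a4 had 25.1 and 28.3 RPKM in Ctrl against 13.3 and 7.92 RPKM in HuR-FKO, a difference of -1.29 ± 0.31 (SE, limma, adjusted p = 0.182), the HuR-FKO pools both below. Slc2a4 had 200.2 and 242 RPKM in the Ctrl pools and 149.6 and 183 RPKM in the HuR-FKO pools, a difference of -0.41 ± 0.17 (SE, limma, adjusted p = 0.46), likewise lower in both HuR-FKO pools. Slc19a1 had 10.1 and 17.96 RPKM in Ctrl against 4.96 and 4.89 RPKM in HuR-FKO, a difference of -1.30 ± 0.34 (SE, limma, adjusted p = 0.217), on 18, 20, 10 and 4 reads.

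**Figure D4:**
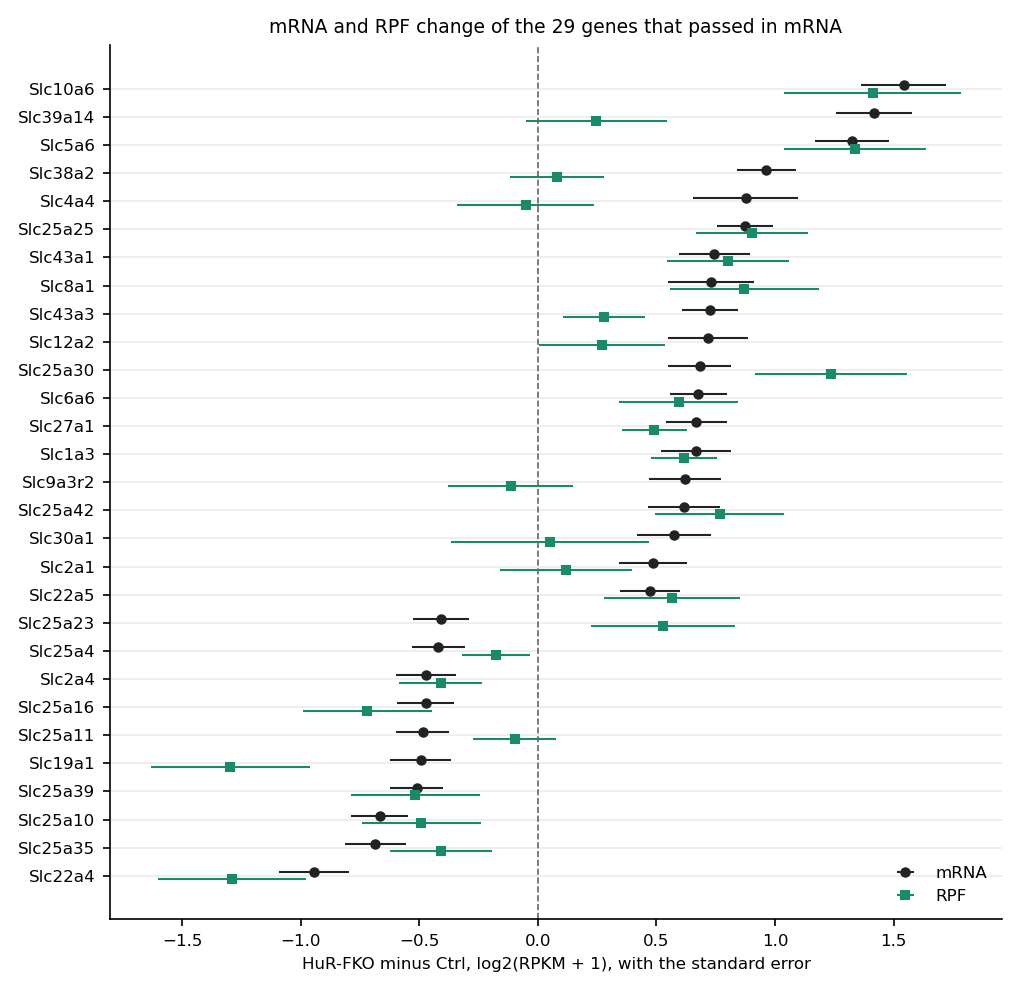
Change in mRNA (circles) and in RPF (squares) of the 29 genes past the threshold in mRNA, HuR-FKO minus Ctrl on log2(RPKM + 1), with standard errors as bars. Most squares lie on the same side of 0 as their circle, with longer bars. The squares of Slc39a14 (0.25), Slc38a2 (0.08) and Slc4a4 (-0.05) lie near 0, and that of Slc25a23 (0.53) lies opposite to its circle.

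The third comparison asked whether the level of RPF for a given level of mRNA, the translational efficiency (TE), differed between genotypes. No carrier passed limma's test, where 0.0117% of all genes did, and none passed with voom or any other alternative. At an unadjusted p under 0.05 there were 11 carriers (8.27%), against 8.04% of all genes, so the share was at the background. The median TE change of the carriers was -0.08, against -0.07 for all genes. None of the TE differences given next passed. They belong to carriers that passed in mRNA, and TE subtracts the mRNA level, so such genes lean to the opposite side. Over all genes that rose in mRNA the median TE change was -0.38, and over those that fell it was 0.23. For the carriers that rose or fell it was -0.13 and 0.12.

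Slc38a2 had 66.4 and 75.7 RPKM in the Ctrl pools and 84.1 and 67.05 RPKM in the HuR-FKO pools in RPF, with overlapping genotypes, beside an mRNA ratio of 1.98. Its TE difference was -0.88 ± 0.24 (SE, limma, adjusted p = 0.573) with an unadjusted p of 0.0041. Slc39a14 had 4.72 and 6.58 RPKM in Ctrl against 7.26 and 6.398 RPKM in HuR-FKO in RPF, which rested on 8, 7, 14 and 5 reads, and a TE difference of -1.17 ± 0.32 (SE, limma, adjusted p = 0.573). The genotypes overlapped at these read numbers. Slc4a4 had 13.7 and 10.7 RPKM in the Ctrl pools and 12.2 and 11.03 RPKM in the HuR-FKO pools in RPF and a TE difference of -0.93 ± 0.34 (SE, limma, adjusted p = 0.584). In the other direction, Slc25a23 had 9.89 and 6.89 RPKM in Ctrl against 11.4 and 13.4 RPKM in HuR-FKO in RPF, on 16, 7, 21 and 10 reads, and a TE difference of 0.94 ± 0.29 (SE, limma, adjusted p = 0.584). Slc30a1 had 18.9 and 7.31 RPKM in the Ctrl pools and 13.6 and 11.2 RPKM in the HuR-FKO pools in RPF, where the Ctrl pools differed more from each other than the genotypes did.

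TE spanned a wide range among the carriers. It was taken as log2(RPF + 1) minus log2(mRNA + 1) in each pool, relative to the median gene of that pool, as a description with no test. In Ctrl the carriers ran from -2.38 to 2.05 with a median of 0.06. Amino acid transporters had a median of 0.36 with 17 of 23 above the median gene, and mitochondrial carriers a median of -0.15 with 16 of 25 below it. TE in Ctrl fell with coding G+C content (Spearman rho = -0.383 across the 133 carriers and -0.309 across 8245 genes). The part of G+C content in the differences between classes and genes was not tested. Among the 119 carriers with at least 5 RPKM of mRNA in Ctrl, Slc16a1 stood highest, at 1.97 and 2.12 in the Ctrl pools and 1.84 and 1.52 in the HuR-FKO pools. Slc9a9, an endosomal sodium-proton exchanger, was next, at 1.88 and 1.83 in the Ctrl pools and 1.48 and 1.18 in the HuR-FKO pools. Slc38a2 followed at 1.50 and 1.54 in the Ctrl pools and 0.92 and 0.48 in the HuR-FKO pools. Slc29a3, a lysosomal nucleoside transporter, had 1.06 and 1.97 in the Ctrl pools and 1.58 and 0.69 in the HuR-FKO pools, and its Ctrl pools lay too far apart to rank it against its neighbours. Slc7a8, a neutral amino acid exchanger, had 1.38 and 1.43 in the Ctrl pools and 0.89 and 1.35 in the HuR-FKO pools.

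At the low end lay 4 mitochondrial carriers and an anion exchanger. Slc25a23 was lowest at -2.24 and -2.52 in the Ctrl pools and -1.51 and -1.25 in the HuR-FKO pools. Slc25a39 had -2.20 and -1.93 in the Ctrl pools and -2.24 and -1.77 in the HuR-FKO pools, so that 194 ± 11.02 RPKM of mRNA in Ctrl stood beside 37.6 ± 6.57 RPKM of RPF (SD, n = 2). By their Ctrl means both were lower than any carrier outside the Slc25 family, although the Ctrl pools of Slc25a39 overlapped those of Slc4a2. This did not hold in HuR-FKO, where the nucleoside transporter Slc28a2 had a mean of -2.17, against -2.01 for Slc25a39 and -1.38 for Slc25a23. Slc4a2 had -2.03 and -1.59 in the Ctrl pools and -1.90 and -1.97 in the HuR-FKO pools. Slc25a28, an iron importer of mitochondria, had -1.81 and -1.38 in the Ctrl pools and -1.24 and -1.73 in the HuR-FKO pools, and Slc25a51, the mitochondrial NAD carrier, had -1.58 and -1.55 in the Ctrl pools and -2.04 and -1.81 in the HuR-FKO pools. The last 2 do not differ beyond their spread in Ctrl. Slc1a5, with the most mRNA, also had the most RPF of the 133, at 1279 and 1494 RPKM in Ctrl against 1620.4 and 1511 RPKM in HuR-FKO.

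**Figure D5:**
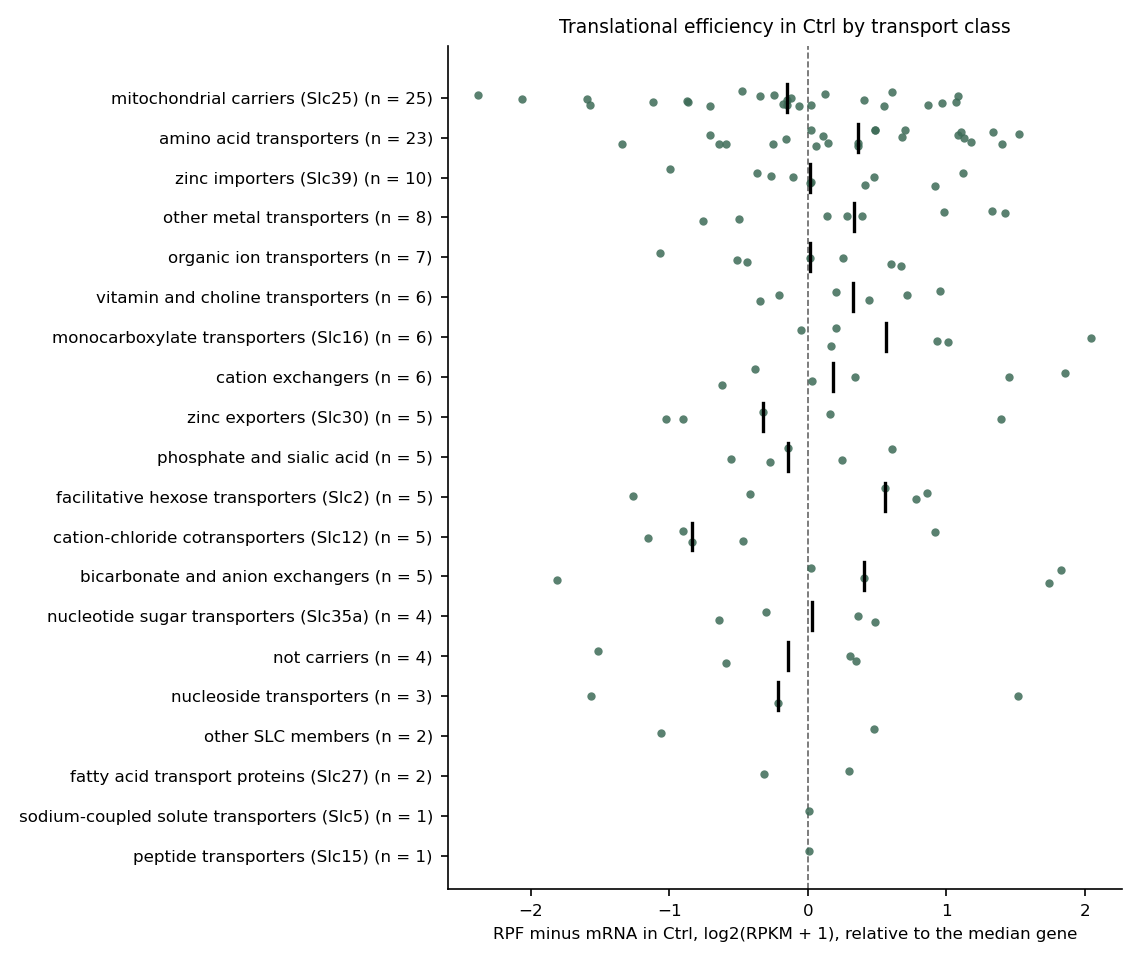
TE in Ctrl (mean of 2 pools, relative to the median gene at the dashed line) of each of the 133 genes by transport class, with class medians as bars where a class had 3 or more genes. The monocarboxylate transporters (median 0.57) and amino acid transporters lie mostly to the right, and the lowest points belong to mitochondrial carriers.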

How the data were processed

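The deposited table holds an RPKM value per gene for each of the 8 libraries, computed by the authors from coding reads, coding length and library size. The submitters' processing notes name Bowtie 1.0.0, TopHat2 2.0.9 and cutadapt 1.8.3. Genome build, annotation and counting program are, in the sources used here, not given. The lowest value was 1.001 RPKM, so lower genes were absent from the start. The RPF samples also list a HuR antibody among their labels, although no protocol describes an immunoprecipitation for these libraries. The authors' own ratio, efficiency and group mean columns were not used.

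Depth was recovered from the values: 8245 genes (96.3%) matched a coding length of GENCODE M21, 98.4% of which came out as whole reads (within 0.001) in every library, including 132 of the 133 genes described. Reads are not independent molecules, so read numbers speak of counting error only. Genes with a mean above 1 RPKM in at least 1 genotype were kept, which removed none. The mRNA and RPF comparisons each used the 4 libraries of the assay as log2(RPKM + 1) in limma 3.58.1 (R 4.3.3; lmFit, then eBayes with trend), and TE was the interaction of genotype and assay over all 8 libraries, with the mRNA and RPF library of a pool kept as separate samples. Fold changes on this scale understate the change of low genes. Two-sided p-values had Benjamini-Hochberg adjustment over all 8562 genes. These p-values and the standard errors rest on the spread between pools as moderated by eBayes, which borrows from genes of similar level. They are therefore not the spread of each gene's own pools alone. An exact permutation test of 2 pools against 2 cannot go below p = 0.333.

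The members, classes and lists were chosen with earlier results of these data known. Named were all members past the threshold with at least 5 RPKM in a genotype and no overlap (up to 10 in each direction and up to 4 in each class), the 2 most abundant of each class of 3 or more, all Slc2 genes, Slc11a1, and the 5 highest and 5 lowest in TE in Ctrl. Slc1a3, Slc27a1, Slc27a4, Slc25a42, Slc3a2, Slc46a1, Slc19a2, Slc39a8, Slc9a3r1, Slc35a1, Slc26a2, Slc7a5 and Slc38a5 were named after their values were seen. Alternatives were voom on the recovered reads, quantile or median ratio scaling, a pseudocount of 0.1, a minimum mean of 5 RPKM or none, eBayes without trend, removing the coding length trend, blocking on replicate number, one fit shared by the 8 libraries, and leaving out each pool. Removing trends along transcript length and coding G+C content (splines with 4 degrees of freedom) was added after the values were seen. A further 2 genes with such symbols are not reported here.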

Additional observations from a re-analysis of the deposited data

How the results depend on the processing

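In mRNA, leaving out 1 pool at a time gave 6 to 22 carriers that rose and 0 to 10 that fell, against 19 and 10 with all pools, the low counts coming from each HuR-FKO pool in turn. The shared fit over all 8 libraries gave 8 and 0. The other alternatives gave 14 to 26 that rose and 7 to 13 that fell. Over all genes they gave 488 to 1125 that rose and 414 to 1031 that fell. The median of the carriers less that of all genes, 0.143 in mRNA, ran from 0.0756 to 0.188 with a pool left out. In RPF it was 0.0511 and ran from -0.0438 to 0.127, and in TE it was -0.0125 and ran from -0.113 to 0.0157. No carrier passed in RPF as reported. With the coding length trend removed 3 were higher and 1 lower, with the shared fit 4 and 3, with voom 4 and 1, and once trends with length and G+C were taken out 1 and 0. Over all genes these fits gave, in the same order, 73 and 51, 93 and 109, 97 and 77, and 52 and 36. In TE none passed under any alternative that could be fitted. The cause of these differences was not tested. Leaving out any pool leaves fewer samples, but among those fits the mRNA calls became fewer only without a HuR-FKO pool.

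With the replicate number as a block, 26 carriers rose and 13 fell in mRNA, and 3 were higher and 2 lower in RPF. Over all 8562 genes that fit gave 1125 rises and 1031 falls in mRNA, and 73 and 67 in RPF. The replicate numbers give no known pairing of Ctrl and HuR-FKO pools. Deviations of same-numbered libraries correlated at r = 0.155 in mRNA and -0.0048 in RPF across 8562 genes. With the pool as a block in TE, none passed. Of the named carriers, no value past a threshold changed sign. Depth limits RPF most, since 25.8% to 65.2% of the carriers had under 20 RPF reads in a library.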

Other observations

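In the second HuR-FKO pool 2 amino acid transporters stood apart in both assays. Slc7a5, which encodes LAT1, the exchanger of large neutral amino acids, had 4.53 and 4.03 RPKM in the Ctrl pools and 3.24 and 10.1 RPKM in the HuR-FKO pools of mRNA, and 4.51 and 8.08 RPKM in Ctrl against 5.45 and 17.1 RPKM in HuR-FKO of RPF. Slc38a5, a glutamine transporter, had 1.53 and 1.21 RPKM in the Ctrl pools and 1.46 and 3.49 RPKM in the HuR-FKO pools of mRNA, and 3.01 and 3.84 RPKM in Ctrl against 4.24 and 20.9 RPKM in HuR-FKO of RPF. In both genes the first HuR-FKO pool lay near the Ctrl pools, and the RPF values rested on 8, 9, 11 and 14 reads for Slc7a5 and on 5, 4, 8 and 16 reads for Slc38a5 in the 4 libraries. Neither passed in mRNA or RPF.

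A few carriers had RPF levels apart between genotypes beside little difference in mRNA. Slc35a1, which brings CMP-sialic acid into the Golgi, had 16.3 and 10.9 RPKM in the Ctrl pools and 27.9 and 26.1 RPKM in the HuR-FKO pools of RPF, a difference of 0.96 ± 0.29 (SE, limma, adjusted p = 0.288), and an mRNA change of 0.14. Slc26a2, a sulfate transporter, had 7.03 and 6.85 RPKM in Ctrl against 13.7 and 13.6 RPKM in HuR-FKO of RPF, a difference of 0.88 ± 0.28 (SE, limma, adjusted p = 0.313), and an mRNA change of -0.02. Slc9a3r1, a scaffold protein and no carrier, had 30.9 and 24.6 RPKM in the Ctrl pools and 17.9 and 15.9 RPKM in the HuR-FKO pools of RPF, a difference of -0.68 ± 0.26 (SE, limma, adjusted p = 0.41), and an mRNA change of -0.05. None passed the test in RPF or TE, and all 3 were chosen after their values were seen.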
